A study of Mus musculus with 12 samples.

Results

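The cells described here were CD8 T cells of the mouse aorta in which fewer than 3 of 6 cytotoxic genes were detected, called cytotoxic-low CD8 T barcodes below, where a barcode is the droplet tag that stands for 1 cell. They were chosen on their own RNA. A barcode was kept with more than 200 genes, more than 1000 UMIs (unique molecular identifiers, each standing for 1 captured RNA molecule) and less than 10% mitochondrial UMIs. It then had to hold at least 3 of the 6 T cell genes Cd3d, Cd3e, Cd3g, Lat, Trac and Trbc2, at least 1 UMI of Cd8a or Cd8b1, no UMI of Cd4, Cd79a or Ms4a1, and fewer than 3 of the 6 cytotoxic genes Ccl5, Nkg7, Gzma, Xcl1, Klrd1 and Ctsw. Of 38072 barcodes kept, 806 met the rule. Beside them stood 253 CD8 T barcodes with 3 or more cytotoxic genes (cytotoxic CD8 T barcodes) and 277 T barcodes with Cd4 and no Cd8 gene (CD4 T barcodes).

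CD8 T cells recognise peptides held on MHC class I molecules, through an alpha-beta T cell receptor and the CD8 co-receptor, a dimer of the Cd8a and Cd8b1 chains. Before they meet antigen they keep a quiescent programme with the transcription factors Tcf7, Lef1 and Foxo1, and circulate through lymphoid tissue with the chemokine receptor Ccr7. On activation they turn on granule and chemokine genes such as Gzma, Nkg7, Ccl5 and Xcl1, and memory cells carry Il2rb (CD122), a receptor chain for IL-15. CD8 T cells are found in the wall and the outer coat of atherosclerotic arteries.

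All mice were labelled male ApoE-/- on a C57BL/6J background, which lack the lipoprotein ligand Apoe and develop atherosclerosis. They were 8 weeks old at the start and were kept for 24 weeks. The 4 groups were Healthy (normal diet, saline), AS (high-fat diet with 1% cholesterol and 10% fat, saline), MTZ-treated (that diet, saline and then methazolamide, MTZ, a carbonic anhydrase inhibitor, through the final 12 weeks) and MTZ-preventive (that diet, with MTZ for all 24 weeks). The dose was 25 mg/kg by gavage every other day, and the labels spell the drug methoxazolamide. From each group 6 aortas were pooled into 1 gene expression, 1 T cell receptor and 1 B cell receptor library. No spread between mice could be measured, no test between groups was possible, and every interval below is a 95% interval for counting error alone.

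The libraries differed in depth and content, with 2201 (AS) to 16316 (MTZ-preventive) barcodes kept. Levels are given as CPM, counts per 1000000 UMIs. Apoe was at 677 CPM in the library labelled Healthy and at 8.46 to 12.6 CPM in the other 3, so that library goes against its genotype label, and every direction drawn against it carries that doubt. Ccl21a, a chemokine of lymph node stroma and lymphatic vessels, was at 258 CPM in the library labelled Healthy, 162 in MTZ-treated, 77.2 in MTZ-preventive and 3.36 in AS; the part of lymphoid tissue around the aorta in the T cell numbers was not tested. No barcode was shared between the cytotoxic-low CD8 T barcodes of different libraries. Of the 594 in the library labelled Healthy, 9 had a tag that was also kept in MTZ-preventive and 6 one that was also kept in MTZ-treated.

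The cytotoxic-low CD8 T barcodes were unevenly spread. The library labelled Healthy held 594 of 12340 barcodes kept, 4.81% (4.44 to 5.21), and MTZ-preventive 195 of 16316, 1.20% (1.03 to 1.37). There were 15 of 7215 in MTZ-treated, 0.208% (0.116 to 0.343), and 2 of 2201 in AS, 0.0909% (0.0110 to 0.328). In this order of levels the intervals of MTZ-treated and AS overlapped and the others were apart. As log2 ratios of the shares, AS against Healthy gave -5.73 (-8.78 to -3.87), MTZ-preventive against AS 3.72 (1.85 to 6.77), and MTZ-treated against AS 1.19 (-0.91 to 4.37), an interval that includes 0. MTZ-preventive against the library labelled Healthy gave -2.01 (-2.25 to -1.77). Fewer CD8 T cells in the tissue and more cells of other types in the suspension cannot be told apart in these shares.

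**Figure D1:**
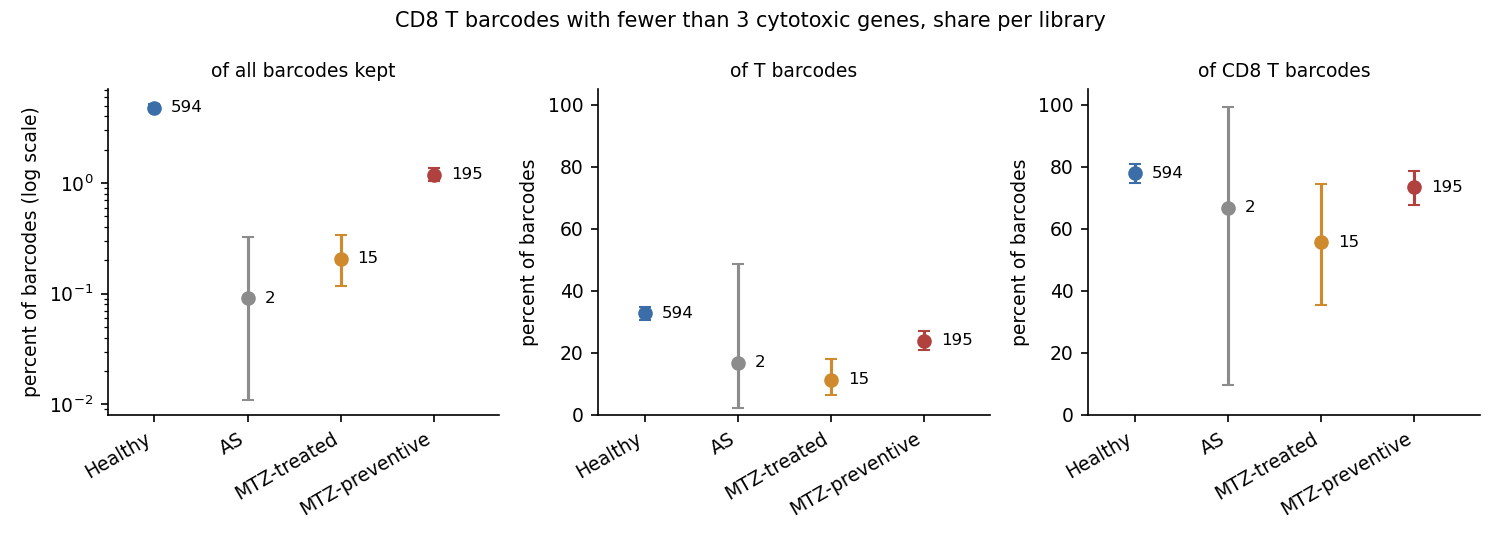
Share of cytotoxic-low CD8 T barcodes in each library, as a percentage of all barcodes kept (left, log axis), of T barcodes (middle) and of CD8 T barcodes (right); points are single libraries, bars are exact 95% binomial limits, and the number beside a point counts the barcodes. The share of all barcodes spans 4.81% to 0.0909%, while the share of CD8 T barcodes lies between 55.6% and 77.9%.

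Among T barcodes the class took 32.6% (30.5 to 34.8) of 1821 in the library labelled Healthy, 23.8% (20.9 to 26.9) of 819 in MTZ-preventive, 11.3% (6.45 to 17.9) of 133 in MTZ-treated and 16.7% (2.09 to 48.4) of 12 in AS. Among CD8 T barcodes it took 77.9% (74.7 to 80.8), 73.3% (67.6 to 78.5), 55.6% (35.3 to 74.5) and 66.7% (9.43 to 99.2). The balance of cytotoxic-low to cytotoxic CD8 T barcodes differed by less than counting error between MTZ-preventive and the library labelled Healthy, with a ratio of the shares of 0.942 (0.797 to 1.11). Detection limits these figures, because 46.1% of T barcodes in the library labelled Healthy, 59.1% in MTZ-preventive, 75.2% in MTZ-treated and 75% in AS held neither Cd4 nor a Cd8 gene. The median depth of the class was 3350, 2865, 2040 and 1382.5 UMIs in the same order of libraries.

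The rule required a Cd8 gene, so the co-receptor could not test the label. The literal wording of the label on cytotoxic genes did not hold. Cd8b1, the chain of conventional CD8 T cells, was detected in 88.4% of the barcodes of the library labelled Healthy and 87.7% of those of MTZ-preventive; in B barcodes it was detected in 0.579% and 0.668%, at median depths of 2127 and 1841 UMIs. Nkg7, a granule protein, was detected in 50.5% and 39.5%, Ctsw, a protease of cytotoxic cells, in 40.6% and 31.8%, and Klrd1 (CD94) in 16.8% and 9.74%. At an equal depth of 1000 UMIs per barcode Nkg7 was detected in 21.4% and 16.4% of the class and in 0.521% and 0.334% of B barcodes, so it stood above that background. None of the 6 cytotoxic genes was detected in 117 barcodes of the library labelled Healthy and 60 of MTZ-preventive. Since the rule used the Cd8 genes and the cytotoxic genes, all these values are descriptions.

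Barcodes near the limit were read by the number of cytotoxic genes detected. Those with 0, 1 and 2 cytotoxic genes lay inside it and those with 3, numbering 103 in the library labelled Healthy and 43 in MTZ-preventive, just outside. Ly6c2, an antigen that memory CD8 T cells carry, was at 416, 435, 1187 and then 1451 CPM over these steps in the library labelled Healthy, and at 163, 354, 766 and then 1370 in MTZ-preventive. Ifng, an effector cytokine, was at 11.0, 28.1, 47.9 and then 138, and at 5.26, 16.9, 94.0 and then 283. The values of both genes were higher at each step toward the cytotoxic side, but some neighbouring intervals overlapped. For Ly6c2 in the library labelled Healthy they were 352 to 487 at 0 genes and 393 to 481 at 1. Il2rb went from 41.3 at 0 genes to 149 at 3 genes, and from 73.7 to 258, with overlapping intervals at 0, 1 and 2 genes. For all 3 genes the intervals at 0 and 3 were apart. Median depth also rose, from 2782 to 4068 UMIs and from 2408.5 to 3484, and its part was not tested. Lef1 was lowest just outside the limit, at 201, 151, 185 and then 125 CPM in the library labelled Healthy and at 89.5, 80.0, 75.2 and then 43.0 in MTZ-preventive. Tcf7 was at 295, 220, 217 and then 215, and at 163, 219, 155 and then 123. Klf2, which keeps T cells quiescent, lay between 425 and 500 CPM over the 4 steps in the library labelled Healthy and between 545 and 691 in MTZ-preventive, with no order.

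**Figure D2:**
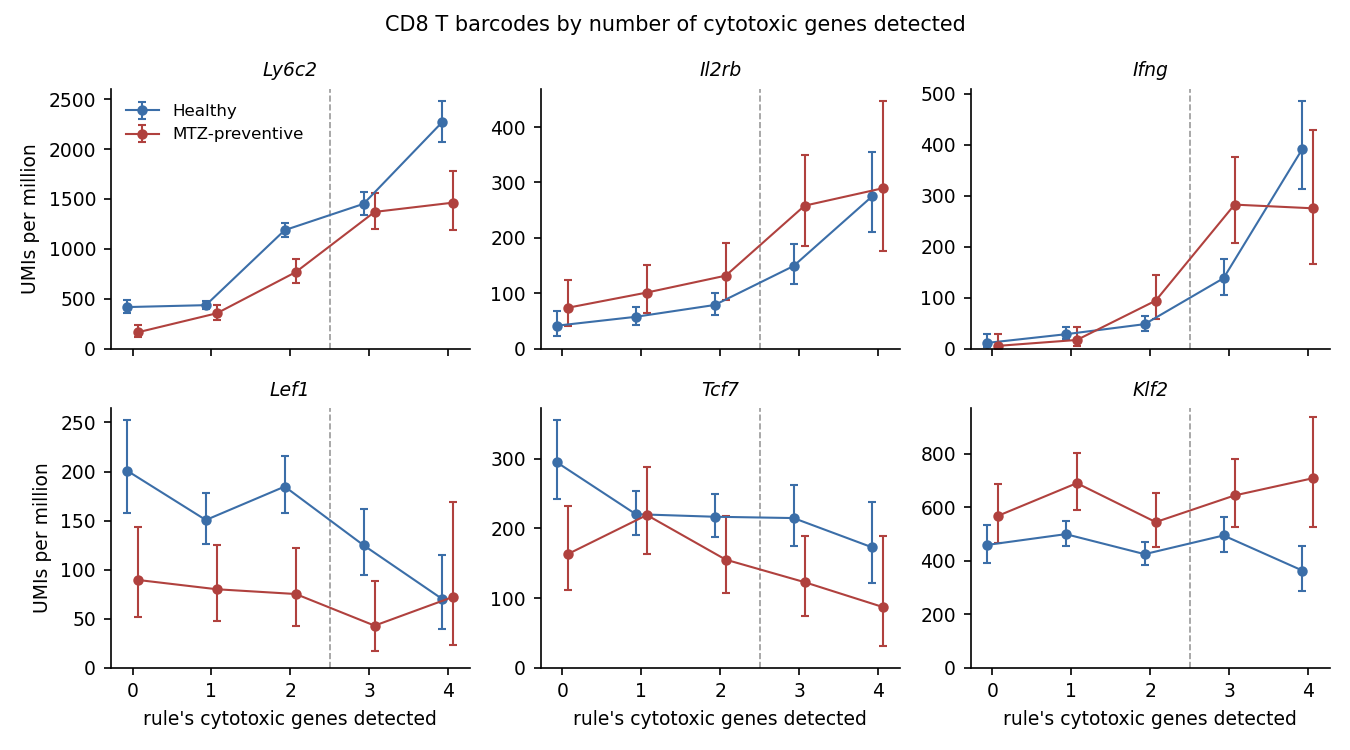
Level of 6 genes (CPM) in CD8 T barcodes with 0 to 4 of the 6 cytotoxic genes, in the library labelled Healthy and in MTZ-preventive; bars are exact 95% Poisson limits and the dashed line is the limit of the class. Ly6c2, Il2rb and Ifng are higher at 3 genes than at 0 in both libraries, and Klf2 stays between 425 and 691 CPM from 0 to 3 genes.

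The receptor libraries, which the rule did not use, bear on identity as T cells. A T cell receptor beta chain (TRB) was recovered from 304 of 594 cytotoxic-low CD8 T barcodes in the library labelled Healthy, 51.2% (47.1 to 55.3), and from 85 of 195 in MTZ-preventive, 43.6% (36.5 to 50.9). B barcodes gave a TRB in 0.347% and 0.334%. Both an alpha and a beta chain were found in 24.4% (21.0 to 28.1) and 22.6% (16.9 to 29.1) of the class. In MTZ-treated 3 of 15 barcodes and in AS 1 of 2 had a TRB. Cytotoxic CD8 T barcodes gave a TRB in 63.9% and 59.2%, with median depths of 4253 and 3492 UMIs. CD4 T barcodes gave one in 64.6% and 60%, at median depths of 2997.5 and 2393 UMIs, below those of the class. In T barcodes with neither Cd4 nor Cd8 it was 46.2% and 40.5%, with intervals that overlap those of the class. A TRB therefore does not set the class apart from other T barcodes, and the part of depth in these gaps was not tested.

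Their receptors were almost all different. The class carried 305 distinct TRB junctions from 21 V genes in the library labelled Healthy and 87 from 19 V genes in MTZ-preventive, and none was shared between the libraries. Of the 304 barcodes with a TRB in the library labelled Healthy, 3 shared it with another barcode of the class, 0.987% (0.204 to 2.86), and 0 of 85 did in MTZ-preventive, with an upper limit of 4.25%. Cytotoxic CD8 T barcodes shared a junction among themselves in 9 of 108, 8.33% (3.88 to 15.2), and 7 of 42, 16.7% (6.97 to 31.4), intervals that lie above those of the class. In CD4 T barcodes 0 of 133 and 2 of 39 did, and in T barcodes with neither Cd4 nor Cd8 2 of 388 and 4 of 196, with intervals that overlap those of the class. The only junction repeated in the class is shown because it was also found outside it: it lay in 3 cytotoxic-low and 2 cytotoxic CD8 T barcodes of the library labelled Healthy, used TRBV12-2 and TRBJ2-7, and was 42 bases long. An alpha chain, read from 1 UMI, was recovered from 1 of the 3, with TRAV12-1 and TRAJ33. Capitals mark the first codon, for the conserved cysteine, and the last codon, for phenylalanine or tryptophan.
TRB junction: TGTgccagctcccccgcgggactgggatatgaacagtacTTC
TRA junction: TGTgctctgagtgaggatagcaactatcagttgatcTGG

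Stromal RNA was present in some barcodes. Over a list of 13 stromal genes, the class held 2924 CPM in the library labelled Healthy and 4701 in MTZ-preventive, with 12 and 13 of the genes detected. Barcodes with 10 or more UMIs of the list, called stromal-rich here, numbered 46 of 594 (7.74%) and 28 of 195 (14.4%). They held 92.8% and 90.3% of these stromal UMIs, and 12.1% and 28.7% of all UMIs of the class. A single barcode of MTZ-preventive, with 30621 UMIs, held 4.78%. Whether they were doublets was not tested, and values without them stand beside the results they touch, a comparison added after the data were seen.

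Tcf7, a factor of naive and memory T cells, was at 181 CPM (150 to 217) in MTZ-preventive and 231 (211 to 253) in the library labelled Healthy, with 9 UMIs in MTZ-treated and 2 in AS. Its partner Lef1 was at 81.2 (60.7 to 107) and 173 (156 to 192), with 4 UMIs in MTZ-treated and 0 in AS. The Lef1 intervals of these libraries were apart and the Tcf7 intervals overlapped. Ccr7 was at 161 (131 to 195) and 144 (128 to 161), overlapping. In AS the class held 2765 UMIs in all, so 3 UMIs make 1085 CPM and no level was placed.

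MTZ-preventive and the library labelled Healthy were the only pair with enough barcodes to compare genes. They differ in diet as well as in drug, and over the whole libraries in Apoe, at 8.46 and 677 CPM. Of 1002 genes at 100 CPM or more in either, 83 (8.28%) were at least 2-fold higher in the class in MTZ-preventive and 18 (1.8%) at least 2-fold lower, with a median log2 ratio of 0.04. Without stromal-rich barcodes 883 genes were left, of which 20 (2.27%) were higher and 17 (1.93%) lower. Of these, 13 of the 20 and 15 of the 17 were past the fold in the full set too. The higher count depended on the stromal-rich barcodes, and the lower count hardly did. The higher genes made up 82.2% of those past the fold, 71.3% (72 and 29) with DESeq2 size factors, which moved the median by -0.15, and 66.7% (36 and 18) by the mean over barcodes.

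**Figure D3:**
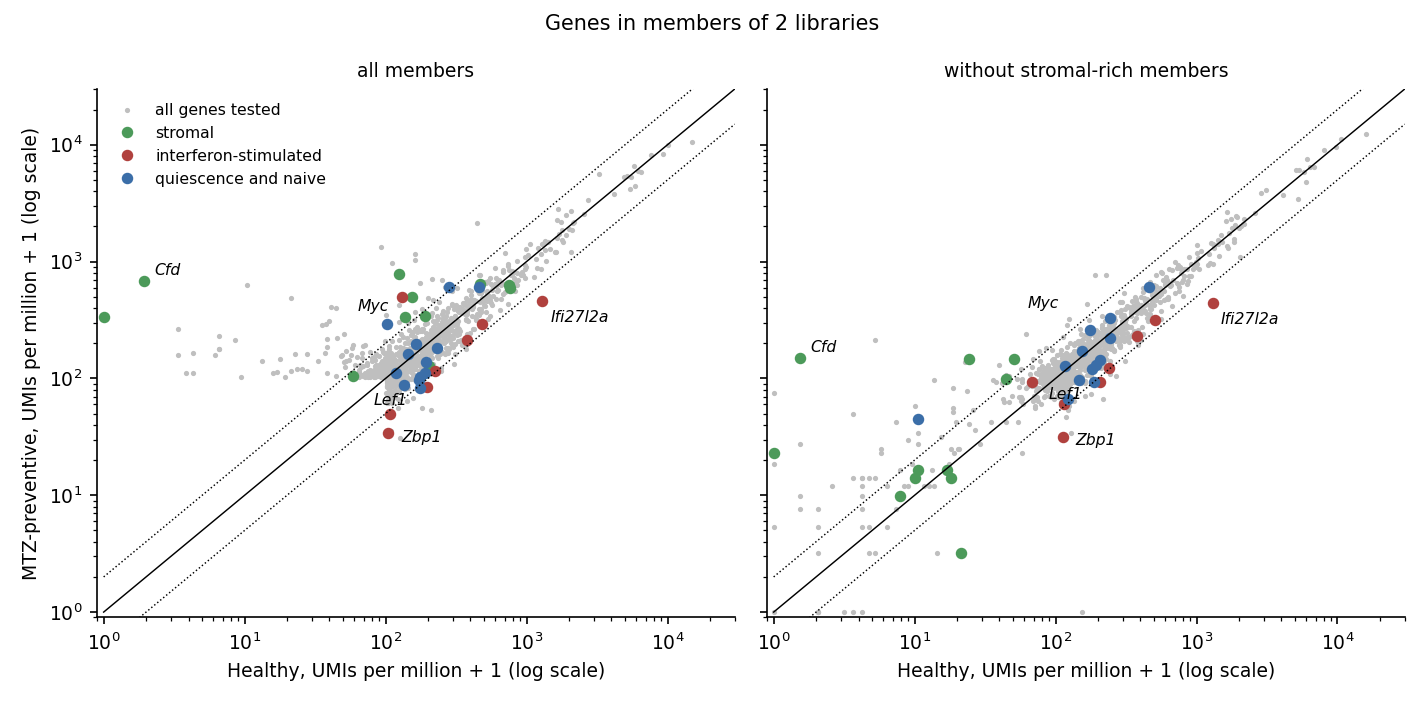
Level of each gene tested in cytotoxic-low CD8 T barcodes (members) of MTZ-preventive (y axis) against the library labelled Healthy (x axis), in CPM plus 1 on log axes. Levels are from all barcodes (left) and without stromal-rich ones (right), and both panels hold the 1002 genes tested with all barcodes. The solid line marks equal levels and the dotted lines 2-fold; the red interferon-stimulated genes lie under the solid line in both panels, except Ly6a.

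The 10 genes with the lowest ratio were led by interferon-stimulated genes, which cells switch on when interferon binds its receptor. Mndal, of a family of DNA-binding interferon-induced proteins, was at 125 CPM in the library labelled Healthy and 29.7 in MTZ-preventive, a log2 ratio of -2.07 (-2.83 to -1.40). Rnf213, a ubiquitin ligase, was at 209 and 53.1, a log2 ratio of -1.98 (-2.52 to -1.47). Zbp1, a sensor of nucleic acid in Z form, was at 104 and 32.8, a log2 ratio of -1.66 (-2.38 to -1.01). These UMIs were spread over many barcodes, since Rnf213 was detected in 244 of 594 and 25 of 195, Mndal in 198 and 18, and Zbp1 in 144 and 17. At equal depth, Rnf213 was detected in 18.5% (15.5 to 21.9) and 8.21% (4.76 to 13.0), against 41.1% and 12.8% at full depth.

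Ifi27l2a was the most abundant of them, at 455 CPM (404 to 510) in MTZ-preventive, 780 (510 to 1143) in MTZ-treated and 1283 (1235 to 1332) in the library labelled Healthy. MTZ-preventive against the last gave a log2 ratio of -1.50 (-1.68 to -1.32). At equal depth it was detected in 29.7% (23.4 to 36.7) of the class in MTZ-preventive and 62.0% (57.9 to 65.9) of the class in the library labelled Healthy, against 49.2% and 87.2% at full depth, and in 32.9% and 55.8% of B barcodes. Irf7, the factor that amplifies the type I interferon response, was at 82.8 (62.0 to 108) in MTZ-preventive against 196 (178 to 216), with 1 UMI in MTZ-treated. Gbp6, a guanylate-binding protein, had a log2 ratio of -1.65 (-2.35 to -1.02). The ubiquitin ligase Mycbp2 stood at -1.21 (-1.71 to -0.75) and the splicing factor Hnrnph1 at -1.19 (-1.54 to -0.86). Eln (elastin) was also among the 10, with up to 74 UMIs in 1 barcode.

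Of the 18 interferon-stimulated genes listed, all were detected in both libraries and 8 reached 100 CPM in either. In MTZ-preventive 4 of the 8 were at least 2-fold lower (Irf7, Ifi27l2a, Ifi203 and Zbp1) and 7 lay below 0, with a median log2 ratio of -1.05 beside 0.04 over all genes tested. Isg15, a ubiquitin-like modifier, was at 481 CPM in the library labelled Healthy and 294 in MTZ-preventive, a log2 ratio of -0.71 (-0.94 to -0.49). Bst2 (tetherin) was at 378 and 214, a log2 ratio of -0.82 (-1.09 to -0.56). The exception was Ly6a (Sca-1), also a gene of endothelial cells and fibroblasts, whose log2 ratio of 1.94 (1.70 to 2.17) became 0.45 (-0.09 to 0.97) without stromal-rich barcodes. The median of the same 8 genes without those barcodes was -0.95. Irf7, Ifi203 and Zbp1 reached 100 CPM in the library labelled Healthy alone, so that level favours lower ratios. Over all 18 listed genes, with no level required, an alternative added after the data were seen, 17 lay below 0 and the median was -1.19, beside 43.0% of 10985 genes below 0 and a median of 0.15.

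The lower level was found in other cells too. Over the same 8 genes the median log2 ratio was -1.05 in cytotoxic CD8 T, -1.12 in T barcodes with neither Cd4 nor Cd8, -0.69 in CD4 T, -0.53 in B and -0.63 in stromal barcodes. For Zbp1, Isg15 and Ifi27l2a the interval lay below 0 in all 6 kinds of barcode. Irf7 stood at -1.24 (-1.69 to -0.83) in the class and at 0.40 (0.12 to 0.68) in B barcodes, a difference that was not tested.

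**Figure D4:**
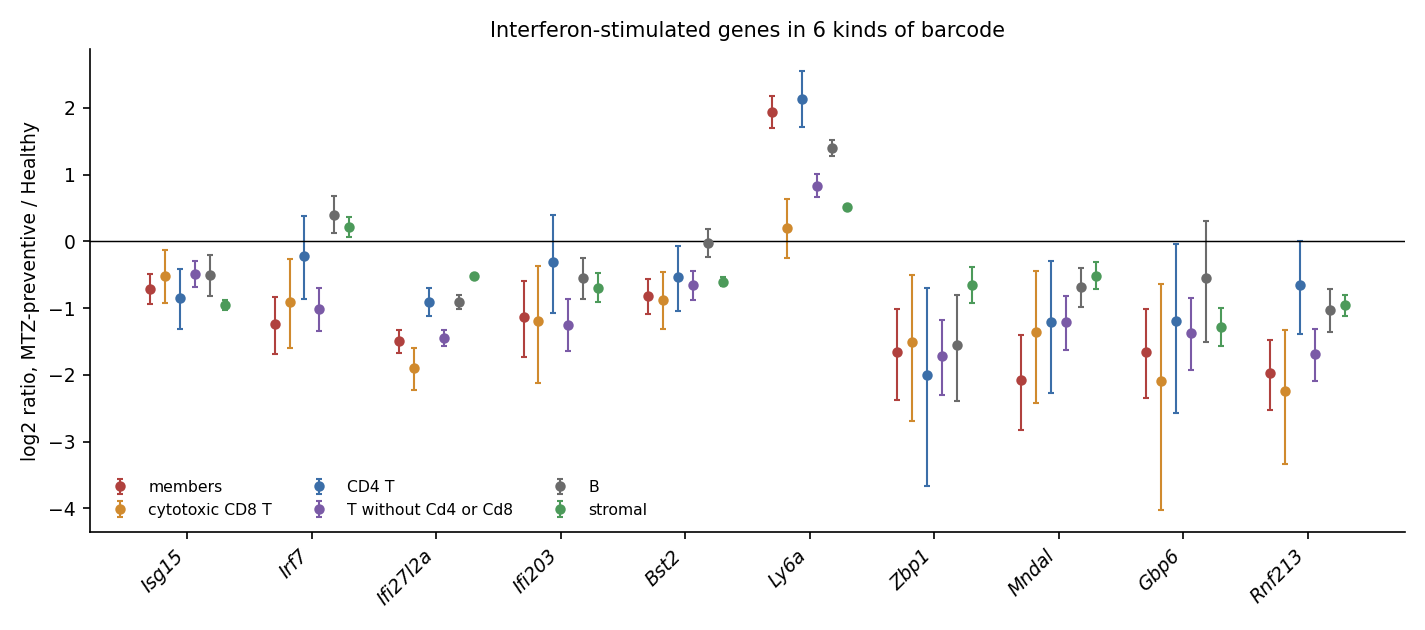
Log2 ratio of MTZ-preventive to the library labelled Healthy for 7 of the 8 interferon-stimulated list genes at 100 CPM and for Mndal, Gbp6 and Rnf213, in 6 kinds of barcode (members are the cytotoxic-low CD8 T barcodes); bars are exact 95% conditional binomial limits. Ly6a lies above 0 in all 6 kinds, Irf7 above 0 in B and stromal barcodes, and the other points lie below 0.

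The promoters of the interferon-stimulated list were read for an interferon-stimulated response element, taken as GAAA and GAAA with any 2 bases between them, on either strand. RefSeq windows from 250 bases before to 50 after the start (build GRCm38.p6) were held for 12 of the 18 list genes, of which 8 (66.7%) had the motif, against 1079 of 27025 genes (3.99%) in all. The genes were listed because interferon induces them, so this share describes the list and not the difference between libraries; of the 8, only Bst2, Ifi203 and Isg15 reached 100 CPM. Irf7 had a window without the motif. Among the 10 genes with the lowest ratio, 4 had a window, and Mndal held the motif while Hnrnph1, Irf7 and Rnf213 did not. In the MHC class I list it was in 2 of 9, B2m and H2-T23. The 120 bases before the start are shown for Isg15, Ifi203 and Mndal, to place the motif, in capitals, in 3 genes with both the motif and a lower level in MTZ-preventive. In Isg15 it occurs as 3 overlapping copies from 78 bases before the start. For Ifi203 and Mndal 1 of 2 windows is shown. The other window of Ifi203 held no motif, and that of Mndal held 1 on the opposite strand. Ifi203 and Mndal belong to 1 family and their stretches are much alike. Their transcripts were not compared, so how well reads of these genes were told apart was not tested.
Isg15, chr4:156200819-156200938, minus strand: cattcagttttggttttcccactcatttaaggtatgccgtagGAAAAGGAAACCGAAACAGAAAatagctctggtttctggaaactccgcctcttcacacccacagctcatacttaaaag
Ifi203, chr1:173942493-173942612, minus strand: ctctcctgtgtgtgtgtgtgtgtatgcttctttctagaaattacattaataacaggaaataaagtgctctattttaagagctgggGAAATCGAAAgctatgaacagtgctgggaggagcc
Mndal, chr1:173880188-173880307, minus strand: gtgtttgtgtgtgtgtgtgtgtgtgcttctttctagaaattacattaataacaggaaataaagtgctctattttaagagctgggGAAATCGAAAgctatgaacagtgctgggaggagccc

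MHC class I genes, which present peptides to CD8 T cells and respond to interferon, lay on the same side by less. All 9 of the 11 listed genes that reached 100 CPM were below 0, with a median log2 ratio of -0.56, and -0.45 without stromal-rich barcodes. Of the 9, 3 reached that level in the library labelled Healthy alone, among them Tapbp; over all 11, with no level required, 11 lay below 0 and the median was -0.56. H2-K1, a classical heavy chain, was at 1383 CPM in the library labelled Healthy, 660 (414 to 999) in MTZ-treated and 1011 in MTZ-preventive, a log2 ratio of -0.45 (-0.58 to -0.33). H2-T23 (Qa-1), a ligand of CD94 receptors, was at 374 and 197, a log2 ratio of -0.93 (-1.21 to -0.65). Tapbp (tapasin), which helps load peptides, was the 1 past 2-fold, at -1.15 (-1.70 to -0.63). The same 9 genes had medians of -0.15 in cytotoxic CD8 T, -0.20 in CD4 T, -0.30 in B and -0.37 in stromal barcodes, and -0.41 in T barcodes with neither Cd4 nor Cd8.

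The quiescence and naive list was divided. Of its 18 genes 13 reached 100 CPM, 8 below 0 and 5 above, with a median log2 ratio of -0.35, beside 465 of 1002 genes tested below 0. The median was -0.14 without stromal-rich barcodes. It was 0.0062 when the rule was applied to barcodes thinned to 1000 UMIs and levels were then taken at full depth. That choice left 154 barcodes in the library labelled Healthy and 47 in MTZ-preventive. No direction was therefore read for the list. Of the 13, 3 reached 100 CPM in the library labelled Healthy alone, among them Lef1 and Satb1, so that level favours lower ratios. Over all 18 listed genes, with no level required, 13 lay below 0 and the median was -0.54. Lef1 was past 2-fold, at -1.09 (-1.54 to -0.67), and at -1.03 (-1.52 to -0.56) without stromal-rich barcodes. At equal depth it was detected in 18.5% of the class in the library labelled Healthy and 8.72% in MTZ-preventive (42.9% and 23.1% at full depth), and in 11 of 1727 and 6 of 599 B barcodes. Satb1, a chromatin organiser of T cells, was at 171 and 95.3 CPM, a log2 ratio of -0.84 (-1.26 to -0.45), and Dapl1, a gene of naive CD8 T cells, at 191 and 109, a log2 ratio of -0.80 (-1.19 to -0.43). On the other side stood Klf2, at 462 and 606, a log2 ratio of 0.39 (0.22 to 0.56). Il7r, the receptor for the survival cytokine IL-7, was at 163 (146 to 181) and 195 (163 to 233), and at 420 (230 to 705) in MTZ-treated, above the interval of the library labelled Healthy. Igfbp4 and Ly6c1 were past 2-fold higher, and stromal cells also make them: Igfbp4 stood at 1.10 (0.92 to 1.29) and, without stromal-rich barcodes, at 0.44 (0.16 to 0.71). Ly6c1 was at 102 CPM in the library labelled Healthy and 294 in MTZ-preventive. Without stromal-rich barcodes it was at 9.61 and 43.9, from 18 and 20 UMIs, so its ratio did not shrink.

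**Figure D5:**
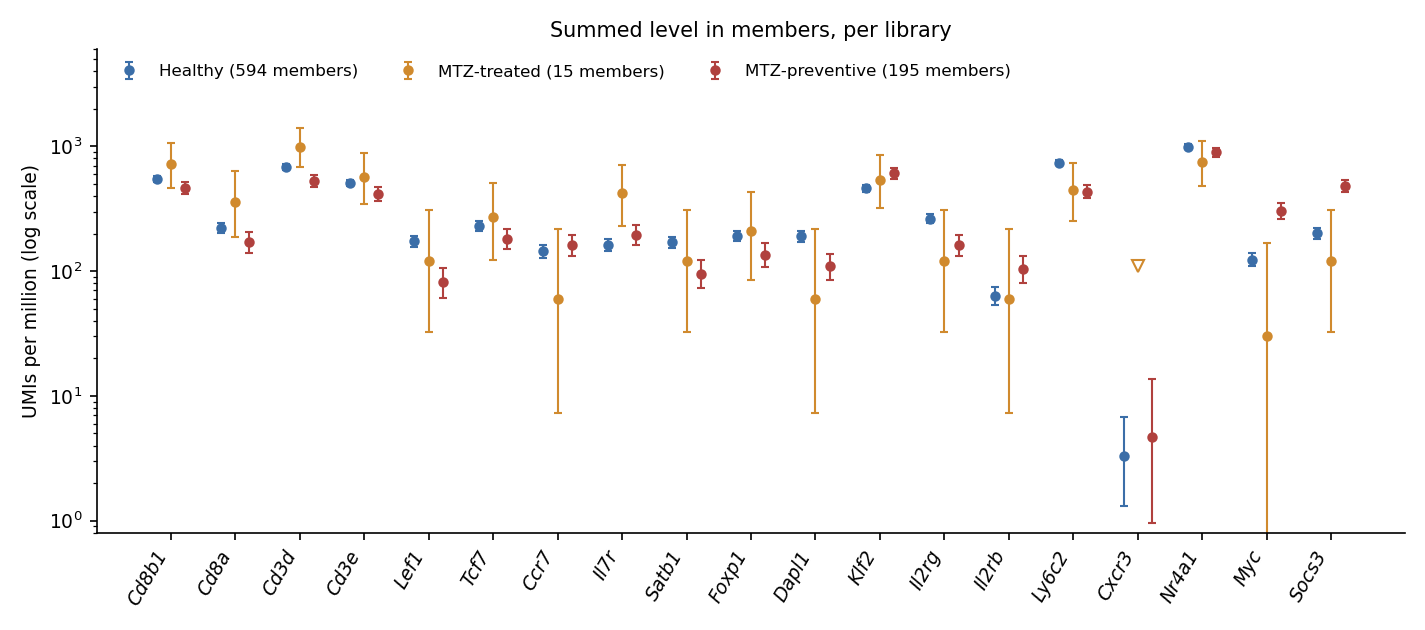
Summed level of 19 genes in cytotoxic-low CD8 T barcodes (members) of 3 libraries, in CPM on a log axis, with exact 95% Poisson limits; the open triangle is the upper limit of a gene with 0 UMIs. The limits of MTZ-treated, from 15 barcodes, are wide, while Lef1 of MTZ-preventive lies below, and Myc and Socs3 lie above, the library labelled Healthy.

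In CD4 T barcodes Lef1 was lower in MTZ-preventive as well, with a log2 ratio of -2.39 (-3.64 to -1.38). Within the library labelled Healthy, Lef1 was at 173 CPM in the class and 210 in CD4 T barcodes, a log2 ratio of -0.28 (-0.57 to 0.01). Within MTZ-preventive it was at 81.2 and 40.0, a log2 ratio of 1.02 (-0.06 to 2.31). Both intervals between the class and CD4 T barcodes included 0.

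Receptor genes of memory cells stood on different sides. Il2rb was at 103 CPM (79.8 to 131) in MTZ-preventive and 63.4 (53.1 to 75.0) in the library labelled Healthy, a log2 ratio of 0.70 (0.25 to 1.14), with 2 UMIs in MTZ-treated. It was detected in 49 of 195 and 100 of 594 barcodes, and reached 100 CPM in MTZ-preventive alone. Over 12 processing alternatives the log2 ratio of Il2rb ran from 0.033 to 0.91, and in 1 of them it moved by more than counting error. Il2rg, the common chain that pairs with it, was at 161 and 263, a log2 ratio of -0.71 (-1.03 to -0.41), and Ly6c2 was at 434 and 741, a log2 ratio of -0.77 (-0.96 to -0.59), with 15 UMIs in MTZ-treated, 12 of them in 1 barcode. Cxcr3, a chemokine receptor of effector and memory T cells, had 3 and 7 UMIs, too few to place. Only Il2rb, Il2rg and Ly6c2 of the 13 genes on this list reached 100 CPM.

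Immediate early genes, which stimulation and tissue digestion both induce, were abundant. The 22 listed held 21222 CPM in the library labelled Healthy, 19953 in MTZ-treated and 23348 in MTZ-preventive, with a median log2 ratio of 0.11 over the 20 at 100 CPM; the part of digestion was not tested. B barcodes held 26629 and 25747 CPM of the same genes. Junb was at 5815, 4171 and 6631. Nr4a1 (Nur77), which T cell receptor signals induce, was at 894 CPM (822 to 970) in MTZ-preventive and 994 (952 to 1037) in the library labelled Healthy, and at 1570 and 1568 in their CD4 T barcodes.

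Of the 20, Myc and Atf3 were at least 2-fold higher, beside 83 of 1002 genes tested (8.28%), so this count does not set the list apart. Myc, the growth regulator, was at 124 (109 to 140) CPM in the class of the library labelled Healthy and 305 (263 to 351) in that of MTZ-preventive, a log2 ratio of 1.30 (1.02 to 1.57), with 1 UMI in MTZ-treated. At equal depth it was detected in 10.3% (7.95 to 13.0) and 23.6% (17.8 to 30.2) of the class, against 27.6% and 43.1% at full depth, and in 12.6% and 17.9% of B barcodes. Atf3, a stress-response factor, was at 179 and 394, a log2 ratio of 1.14 (0.90 to 1.37). Socs3, a feedback inhibitor of cytokine signals from the survival and cytokine list, was at 200.5 (182 to 220) and 483 (430 to 540), a log2 ratio of 1.27 (1.05 to 1.48), detected in 215 of 594 and 112 of 195 barcodes. Both Myc and Socs3 had log2 ratios above 0 in cytotoxic CD8 T, CD4 T and B barcodes, at 0.76, 0.87 and 0.46 for Myc and 1.24, 1.67 and 1.03 for Socs3.

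Other lists differed by less. Of 8 T cell receptor signalling genes 7 lay below 0, with a median log2 ratio of -0.29, and -0.12 without stromal-rich barcodes. The exception was the co-stimulatory receptor Cd28, at 63.8 CPM in the library labelled Healthy and 117 in MTZ-preventive, a log2 ratio of 0.88 (0.45 to 1.29). Of 12 heat shock genes 9 lay below 0, with a median of -0.21, and -0.098 without stromal-rich barcodes. Over all genes tested, 465 of 1002 lay below 0, with a median of 0.04. The 9 inhibitory receptors together held 33.8 and 60.9 CPM, and Mki67, a marker of dividing cells, was detected in 5 and 1 barcodes. Among markers of other cells, the 8 CD4 T genes held 39.9 and 79.7 CPM, the 8 natural killer genes 22.1 and 34.4, the 12 B cell genes 317 and 222, and the 12 macrophage and neutrophil genes 54.0 and 131.

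The 10 genes with the highest ratio were mostly products of stromal, fat or inflammatory cells. Cfd (adipsin), a fat cell product, had 2 UMIs in the library labelled Healthy and 438 in MTZ-preventive, where 58 of 195 barcodes held it and 1 barcode held 309. Cxcl13, a chemokine that attracts B cells, and Hp (haptoglobin) had 0 UMIs in the library labelled Healthy, and a single barcode of MTZ-preventive held 169 of the 215 Cxcl13 UMIs and 141 of the 207 Hp UMIs. Against 3 counts in the library labelled Healthy, Cxcl13 was at least 238.5-fold and Hp at least 229.6-fold higher, and without stromal-rich barcodes at least 13.689-fold and 46.54-fold. Timp1, Pi16, Serpina3n, Cd248, Fbn1, Lrg1 and Cxcl2 completed the 10, each detected in 7 to 16 barcodes of MTZ-preventive. Over the whole libraries Cxcl13 was at 2.40 and 924 CPM, and in B barcodes Cfd had a log2 ratio of 9.57 beside 9.51 in the class. Without stromal-rich barcodes the highest 10 were Cfd, Cxcl2, Fabp4, Plaur, Ccl5, Mt1, Vim, Rgs1, Tagln and Socs3. Plaur, the urokinase receptor, was detected in 37 of 594 and 49 of 195 barcodes, and Rgs1, a regulator of chemokine signalling, in 61 and 25.

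Within each library the class was set beside CD4 T barcodes. Of 900 genes, 17 (1.89%) were at least 2-fold higher in the class in both libraries and 9 (1%) at least 2-fold lower, and without stromal-rich barcodes 7 (0.806%) and 11 (1.27%) of 869. The 10 highest were Ly6c2, Plac8 and 8 contractile or matrix genes such as Acta2 and Fn1. Ly6c2 was at 741 against 112 CPM in the library labelled Healthy and 434 against 40.0 in MTZ-preventive, log2 ratios of 2.73 (2.39 to 3.08) and 3.44 (2.44 to 4.67). Without stromal-rich barcodes the highest were Ly6c2, Plac8, Ier3, Myc, Dapl1, Cxcl10, Klk8, Icam1, Npm3 and Epsti1. The lowest were Izumo1r (folate receptor 4), of regulatory and anergic T cells, at 21.1 against 192 and 37.5 against 290 CPM, then Rgs16, Bhlhe40, Cd5, Cd28, Cd6, Ass1, Prkca, Rel and Itgb2. Ctla4, an inhibitory receptor, was at 6.41 against 102 and 32.9 against 213 without stromal-rich barcodes. T cell receptor signalling genes were lower than in CD4 T barcodes for 10 of 10 in both libraries, with medians of -0.54 and -0.77 beside -0.16 and -0.26 over all 900 genes. Of the 900 genes, 520 were lower in both libraries and 142 higher in both. Without stromal-rich barcodes 11 of 12 of the signalling genes were lower in both, beside 535 of 869 genes.

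Against cytotoxic CD8 T barcodes, 14 of 855 genes (1.64%) were at least 2-fold lower in both libraries and 8 (0.936%) higher, and without stromal-rich barcodes 17 (2.07%) and 0 of 821; genes of the rule were counted among them. Outside the rule the lowest was Ccl4, a chemokine, at 25.8 against 483 CPM in the library labelled Healthy and 57.8 against 926 in MTZ-preventive. Ifng was at 33.3 against 262 and 39.1 against 286. Ctla2a, Hopx, Il2rb, Bhlhe40, Cd7, Ly6c2, Ms4a4b and Sh2d2a followed, with Il2rb at 63.4 against 192 and 103 against 270.5. Lef1 was higher in the class in the library labelled Healthy, with a log2 ratio of 0.70 (0.35 to 1.07), and its interval in MTZ-preventive included 0, at 0.61 (-0.27 to 1.57). The 10 highest were 9 matrix or stromal genes and Rrad; without stromal-rich barcodes they were Rrad, Plk2, Rgcc, Fos, Brd2, Igfbp4, Eif4b, Nufip2, Gadd45b and Glul, with Rrad at 502 against 292 and 592 against 293.

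In MTZ-treated the 15 barcodes held 33328 UMIs. Ccl5, a gene of the rule, was at 5161 CPM there, against 174 in the library labelled Healthy and 648 in MTZ-preventive. Its 172 UMIs came from 4 of the 15 barcodes, and 1 of them held 112. The 18 interferon-stimulated genes together were at 1890 CPM in MTZ-treated, against 3386 in the library labelled Healthy and 1914 in MTZ-preventive. Without stromal-rich barcodes these sums were 2096, 3410 and 1552 CPM in the same order. No interval was computed for the sums.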

How the data were processed

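Raw counts were used as deposited: for each of 4 gene expression libraries the authors' Cell Ranger matrix gives UMI counts per gene and barcode (header version 5.0.0; the submitters' processing notes also name STAR and mm10), and contig tables give receptor chains with read and UMI counts. Counts of symbols on several lines were summed. The class members and gene lists were chosen with earlier results of these data known. Counts were summed over the barcodes of a class in each library and divided by their total, as counts per 1000000 UMIs (CPM). Exact Clopper-Pearson limits were used for shares, Poisson limits for levels and conditional binomial limits for ratios, at 95%; they cover counting error only. With 1 library per group no p-value was computed. Genes compared had at least 100 CPM in either arm; immunoglobulin, T cell receptor, mitochondrial, hemoglobin and ribosomal genes and unnamed models were left out. Text genes were the rule genes, list genes at that level, the 10 highest and 10 lowest ratios (1 CPM added) of each comparison, and Il2rb, Cxcr3 and Nr4a1; other genes were named after their values were seen, and a few genes that meet these rules are not reported here. Barcodes with Cd79a or Ms4a1 UMIs were left out of T barcodes, with no other doublet removal in the main analysis. Thinning used seed 1. Ratios and limits were tested on simulated data. Alternatives used Scrublet in scanpy 1.11.5, edgeR 4.0.16 TMM factors and DESeq2 1.42.0 size factors. Python 3.11.15, scipy 1.17.1 and R 4.3.3 were used.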

Additional observations from a re-analysis of the deposited data

Results flagged for a closer look

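For 3 genes the log2 ratio of MTZ-preventive to the library labelled Healthy had opposite signs in cytotoxic-low CD8 T barcodes and in another kind of barcode, with both intervals apart from 0; each group is 1 library, so the difference was not tested. Irf7 stood at -1.24 (-1.69 to -0.83) in the class and 0.40 (0.12 to 0.68) in B barcodes. Cxcl2, a neutrophil chemokine, stood at 4.98 (4.12 to 5.98) in the class, where 94 of its 114 UMIs in MTZ-preventive came from 1 barcode, and it had 0 UMIs in cytotoxic CD8 T barcodes of MTZ-preventive. Ccl5 stood at 1.90 (1.69 to 2.10) in the class, whose rule used it, and at -1.10 (-1.56 to -0.68) in CD4 T barcodes.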

How the results depend on the processing

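No paired analysis was possible because each group has 1 pooled library; counting error is the only error measured, and AS (2 barcodes) and MTZ-treated (15) limit every gene level. Of the genes past 2-fold in MTZ-preventive against the library labelled Healthy (83 higher, 18 lower), requiring no cytotoxic gene gave 160 and 75, thinning every barcode to 1000 UMIs before the rule 33 and 54, a floor of 50 CPM 186 and 49, no floor 2436 and 2481, and totals without technical genes 152 and 38. DESeq2 size factors gave 29 lower ones (72 higher, 71.3% of those past the fold, against 82.2%) and moved the median of all genes by -0.15; TMM factors gave 74 and 25 (74.7%) and -0.12. The mean over barcodes gave 36 higher (66.7%), and leaving out stromal-rich barcodes 20 (54.1%). Thinning before the rule served only to choose barcodes, 154 in the library labelled Healthy and 47 in MTZ-preventive, and levels were taken at full depth. The naive list median became 0.0062 with thinning. The share of T barcodes in the library labelled Healthy became 28.8% with Cd8b1 required, 6.43% with no cytotoxic gene, 20.1% thinned and 30.1% without stromal-rich barcodes, and in MTZ-preventive 20.9%, 7.33%, 15.9% and 20.4%, and 20.1% with 2 T genes; in MTZ-treated it became 2.26% with no cytotoxic gene. The log2 ratio of shares, MTZ-preventive against the library labelled Healthy, became -1.75 with looser limits and -1.37 with no cytotoxic gene; AS then held 0 barcodes, also when thinned, so its ratios had no value. Both receptor chains were found in 18.8% with no cytotoxic gene and 31.2% thinned in the library labelled Healthy, and with 3 UMIs per contig in 4.38% and 5.13%; at least a TRB was found in 51.2% and 43.6%. Signs reversed for Col1a2 and Col3a1 when thinned (-1.50, -0.73), without stromal-rich barcodes (-0.38, -0.062) and by the mean over barcodes (-0.79, -0.88), for Ly6a (-0.38) and Rgs1 (-0.053) when thinned, for Ly6c1 with no cytotoxic gene (-0.12), and for Eln without Scrublet doublets (0.94). These genes were past 2-fold; among genes under 2-fold 76 values of 37 genes also took the other sign, such as Tagln at 1.56 without stromal-rich barcodes and Fabp4 at -0.69 with no cytotoxic gene. Of the values of 138 genes, 1365 moved by less than counting error and 264 by more. The causes were not tested.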
